A study of Mus musculus with 15 samples.

Results

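The mitochondrial ribosomal protein genes of the mouse carry the symbols Mrpl and Mrps, for proteins first assigned to the large and the small subunit of the mitochondrial ribosome. They were found by symbol alone, as every transcript of the expression table whose gene has a symbol that starts with Mrpl or Mrps and a number. The rule found 76 genes among 12089 transcripts, 47 of them Mrpl and 29 Mrps, with 1 transcript for each gene. All 76 passed the filter on low values, and Mrpl9 and Mrpl33 were not analysed here.

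The expression profiles came from RNA-seq of mouse dental mesenchymal cells (mDMCs). The paper names the ICR strain only for adult mice that received grafts, and gives no strain for the embryos. The mDMCs were single cells freed with trypsin from the mesenchyme of lower first molar germs at embryonic day 14.5, after dispase had been used to take off the epithelium. Freshly isolated mDMCs (0 h, 3 libraries) were compared with mDMCs cultured in medium with fetal bovine serum for 12 h (2 libraries), 24 h (3), 36 h (3) and 48 h (3), and with the dental mesenchyme tissue itself (1 library). No library carried a genetic change or a treatment other than culture, how many embryos were pooled is not given in the sources used here, and no label says that replicates came from separate cultures, so p-values measure the spread between these libraries, which may be technical. The values are whole-number scores that had been brought to the same distribution in every library, with a median of 721 and library totals that differed by at most 0.039%. Read depth is therefore unknown, and a gene's score tells where it stood among the other genes of its library.

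The mitochondrial ribosome translates the few proteins that the mitochondrial genome encodes, all of them core subunits of the respiratory chain and the ATP synthase. Its ribosomal RNAs are made in the mitochondrion, but every one of its proteins is encoded in the nucleus, made in the cytosol and imported. Some of these proteins take the place of a protein of the bacterial ribosome, and the others, called mitochondria-specific, sit where the bacterial ribosome has none. Symbols do not always tell the place of the protein: the products of Mrps18a and Mrps30 are built into the large subunit, and that of Mrps36 belongs to the alpha-ketoglutarate dehydrogenase complex.

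The Mrp genes were of middling expression and were found in every library. Scores ran from 176 to 2317 over all genes and libraries, and the 0 h means ran from 193.3 to 1498.3 with a median of 595.3. At 48 h the median of the means was 869.2 and the range 245.3 to 2098.0. The genes lie on 17 chromosomes, with 11 of them on chromosome 11 and 8 on chromosome 17. The transcript in the table was a protein-coding one for 68 genes, and another transcript of the gene for 8 (Mrpl13, Mrpl20, Mrpl23, Mrpl32, Mrpl51, Mrps12, Mrps14 and Mrps35).

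Libraries of a time point differed in the overall level of these genes. The median coefficient of variation was 11.8% at 0 h and 6.2% at 48 h. Replicate 3 was the lowest 0 h library for 58 of the 76 genes, and replicate 1 was the lower 12 h library for 73. In 48 h replicate 1, the 28 genes with transcripts under 1000 bases stood below the other 48 h libraries by a median of -0.177 on the log2 scale, against -0.026 for the 48 longer ones. Over all transcripts of these length classes the medians were -0.056 (1365 transcripts) and 0.009 (10598).

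Most Mrp genes were higher in cultured mDMCs than in freshly isolated mDMCs from 24 h on, and fewer were at 12 h. A gene was called at a Benjamini-Hochberg adjusted p below 0.05 in limma, a linear model of log2(score + 1) fitted to the 14 mDMC libraries together. At 12 h, 36 of the 76 genes were higher and 4 lower than at 0 h, where 29.9% of the 12079 transcripts tested were higher and 28.3% lower. At 24 h, 50 genes were higher and 2 lower, against 35% and 31.8% of all transcripts. At 36 h, 44 were higher and 5 lower, against 36% and 34%. At 48 h, 52 were higher and 2 lower, against 37.1% and 34%. The share of higher Mrp genes thus stood at 47.4%, 65.8%, 57.9% and 68.4%, and the share of lower ones was 6.58% or less at every time. Without 12 h replicate 2 the count of higher genes at 12 h was smaller, in a fit that leaves 1 library at 12 h. Shares of all transcripts were not counted in fits with a library left out. The counts of lower genes moved with single libraries, and without 0 h replicate 3 they were 7, 3, 8 and 5 at the 4 times. Without 0 h replicate 1 they were 0, 3 and 1 at 24 h, 36 h and 48 h.

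**Figure D1:**
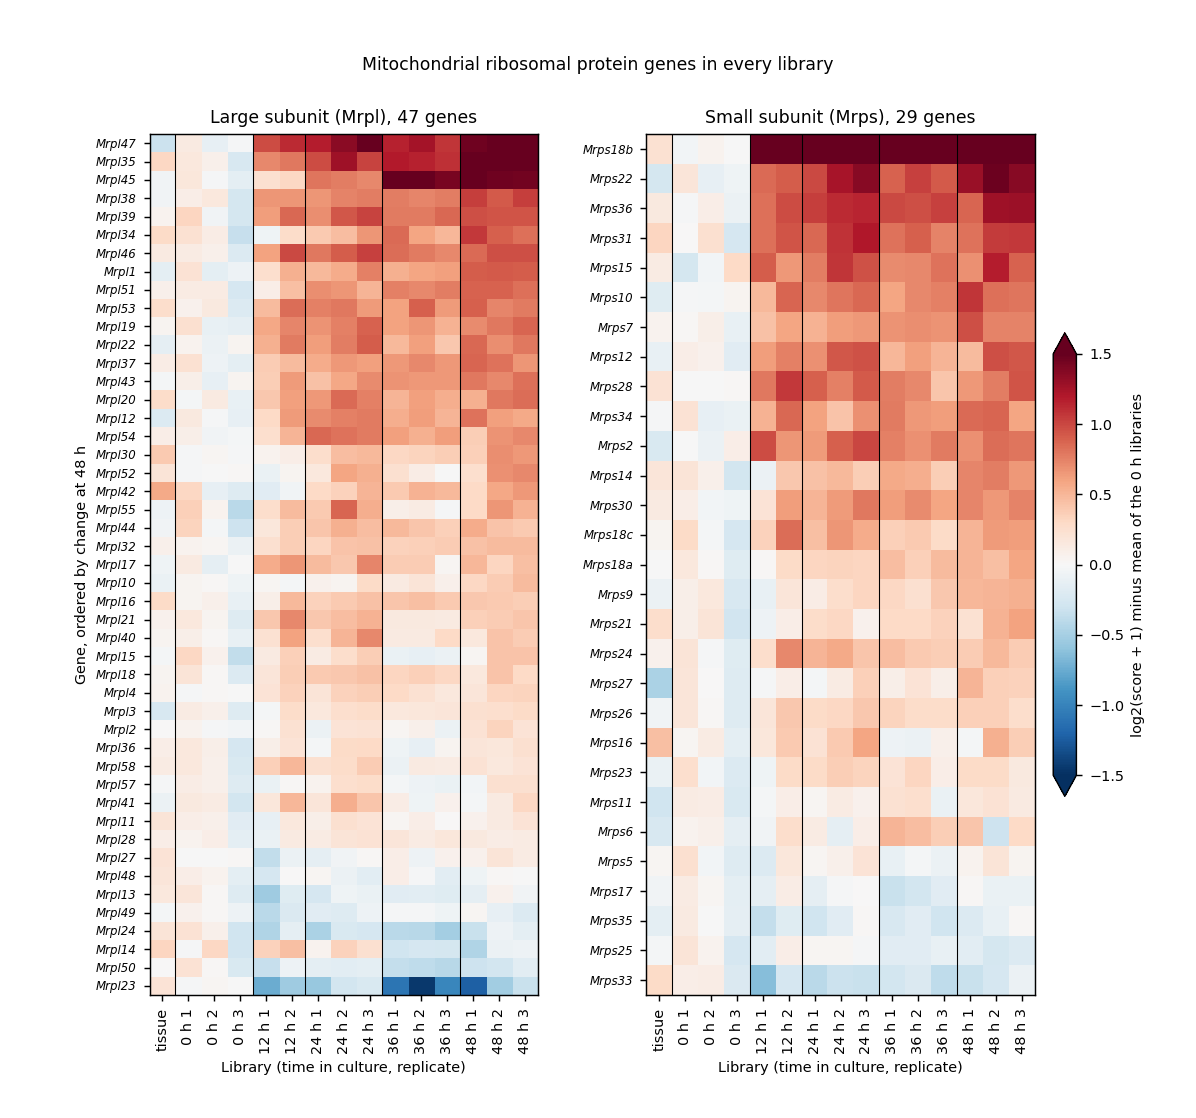
Each cell is the log2(score + 1) of 1 gene in 1 library minus the mean of that gene in the 3 libraries of 0 h, with red above and blue below, for the 47 Mrpl genes (left) and the 29 Mrps genes (right), and genes are ordered by their change at 48 h. Colours end at 1.5 in either direction. In all 11 cultured libraries 41 genes are red, with no share of all transcripts counted beside them. Mrps18b is beyond the colour scale in each of those libraries, and Mrpl23 heads the few blue genes.

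The changes of most genes were small. The median log2 changes from 0 h were 0.29, 0.42, 0.34 and 0.46 at the 4 times in order, while the median over all transcripts stayed between 0.02 and 0.03. Called genes that were also more than 2-fold higher numbered 2, 6, 4 and 6 at the 4 times, beside 12.1%, 13.8%, 15.5% and 16.1% of all transcripts. Mrpl23 at 36 h was the 1 gene more than 2-fold lower, where 15.5% of all transcripts were. Summed over the 76 genes, the score was 51927 ± 5045 (SD, n = 3) at 0 h and 71107 ± 1457 (n = 3) at 48 h. The sums of 46472 to 56426 in the 0 h libraries did not overlap those of 69443 to 72150 in the 48 h libraries.

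Groups of libraries were also set side by side gene by gene. For 54 genes every 48 h library lay above every 0 h library, and for 1 gene every 48 h library lay below, against 37.3% and 34.6% of all transcripts. For the 2 libraries of 12 h the counts were 40 and 5, against 33.7% and 32.6%.

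No Mrp gene passed the test in both directions, as 2.21% of all transcripts did. There were 32 genes higher at all 4 times and 57 higher at 1 time or more, against 23% and 45.3% of all transcripts. No gene was lower at all 4 times, and 7 were lower at 1 time or more, against 21% and 42.8%. The remaining 12 genes (15.8%, against 14.1% of all transcripts) passed the test at no time (Mrpl11, Mrpl14, Mrpl15, Mrpl27, Mrpl28, Mrpl36, Mrpl48, Mrpl57, Mrps5, Mrps11, Mrps25 and Mrps35). Of the genes higher at 48 h, 17 had not been called at 12 h (32.7%, near the 30.7% of all transcripts higher at 48 h).

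**Figure D2:**
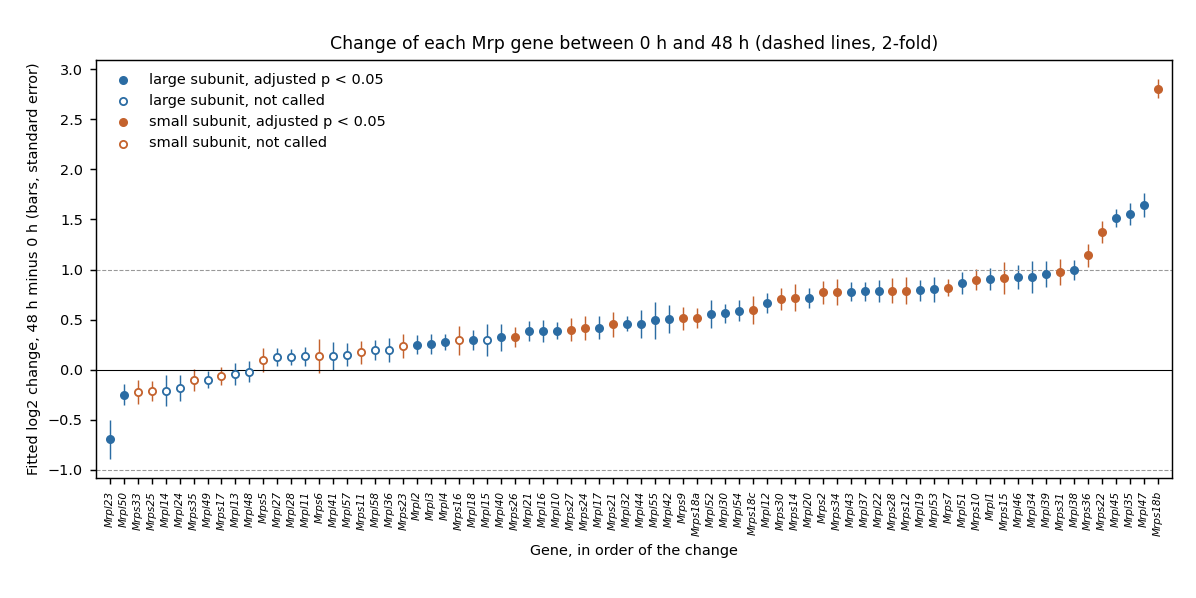
Points give the fitted log2 change of each Mrp gene from 0 h to 48 h and bars its standard error, in order of size, with Mrpl genes in blue and Mrps genes in orange. Filled points passed the test at an adjusted p below 0.05. The 52 filled points above 0 run up to 2.81 for Mrps18b, with Mrpl23 at -0.70 and Mrpl50 at -0.25 the 2 filled points below 0.

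Mrps18b showed the largest rise of all Mrp genes. Its product is counted as mitochondria-specific for its place in the small subunit, although it is 1 of 3 paralogs in the table that are related to the same bacterial ribosomal protein. The product of Mrps18c takes the bacterial protein's place in the small subunit, and that of Mrps18a sits in the large subunit. Mrps18b was at 224, 240 and 230 in the 0 h libraries and at 272 in the tissue. The cultured libraries held 924 and 1052 (12 h), 1133, 1283 and 1327 (24 h), 1405, 1313 and 1342 (36 h), and 1841, 1588 and 1462 (48 h). Every cultured library stood far above every freshly isolated one, and the larger part of the difference on the log2 scale was already there at 12 h. The log2 change was 2.09 ± 0.11 (SE) at 12 h and 2.81 ± 0.10 at 48 h (limma, adjusted p = 1.29e-08 and 1.24e-10), a 6.99-fold rise over 48 h.

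The paralogs moved less. Mrps18a was at 819, 746 and 650 at 0 h, 742 and 896 at 12 h, 1044, 1007 and 1107 at 48 h, and 733 in the tissue. The 12 h libraries overlapped those of 0 h and the 48 h libraries lay above them. The log2 change of Mrps18a was 0.15 ± 0.11 at 12 h and 0.52 ± 0.10 at 48 h (limma, adjusted p = 0.256 and 0.000357). Mrps18c was at 697, 560 and 479 at 0 h, 728 and 1021 at 12 h, 816, 894 and 884 at 48 h, and 588 in the tissue. All 48 h libraries of Mrps18c were above those of 0 h. Its log2 change was 0.59 ± 0.16 at 12 h and 0.59 ± 0.14 at 48 h (limma, adjusted p = 0.00617 and 0.00212). The 12 h call was lost in a fit of only the compared times (limma, adjusted p = 0.0708). Without 12 h replicate 2, which leaves 1 library at 12 h, the 12 h change was 0.35.

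The order of the paralogs by score changed with culture. The score of Mrps18b as a ratio to that of Mrps18a was 0.274, 0.322 and 0.354 in the 0 h libraries and 0.371 in the tissue, and 1.763, 1.577 and 1.321 in the 48 h libraries. The ratio to Mrps18c was 0.321, 0.429 and 0.480 at 0 h, and 2.256, 1.776 and 1.654 at 48 h. In the freshly isolated mDMCs and the tissue Mrps18b had the lowest score of the 3, and in each library from 12 h on it had the highest. These ratios are not scaled to transcript length, which was 884 bases for Mrps18a, 1079 for Mrps18b and 638 for Mrps18c. Per kilobase of transcript at 0 h, the mean scores were 835 for Mrps18a, 214 for Mrps18b and 907 for Mrps18c. At 48 h they were 1191, 1511 and 1355. Levels per kilobase at 12 h to 36 h are not given here, and their order may differ from that of the scores.

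The promoters of the paralogs are shown because the change of Mrps18b at 48 h was larger than those of Mrps18a and Mrps18c. Mrps18b lies on the minus strand of chromosome 17 (GRCm38, 35910379 to 35916389, 7 exons), Mrps18a on the plus strand of the same chromosome (46110986 to 46128910, 6 exons) and Mrps18c on the plus strand of chromosome 5 (100798627 to 100804471, 6 exons). Each window runs from 250 bases before to 50 bases after the RefSeq start of the gene (GRCm38.p6), and is written along the strand of the gene. The windows are chr17:46110754-46111053 for Mrps18a, chr17:35916391-35916690 for Mrps18b and chr5:100798509-100798808 for Mrps18c. Their starts are 18, 51 and 132 bases from the start of the transcript in the table. Capitals mark the letters CCGGAAG (the core bound by ETS factors such as GABP), GCGCATG (part of the site of NRF1) and AAGATGGCG (YY1) on either strand. NRF1 and GABP are known as regulators of nuclear genes for mitochondrial proteins.
Mrps18a: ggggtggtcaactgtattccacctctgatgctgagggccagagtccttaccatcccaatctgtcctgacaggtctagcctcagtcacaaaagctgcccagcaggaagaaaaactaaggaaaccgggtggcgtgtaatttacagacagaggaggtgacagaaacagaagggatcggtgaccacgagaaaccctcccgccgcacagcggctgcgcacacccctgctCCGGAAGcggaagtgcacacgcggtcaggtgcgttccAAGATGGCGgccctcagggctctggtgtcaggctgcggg
Mrps18b: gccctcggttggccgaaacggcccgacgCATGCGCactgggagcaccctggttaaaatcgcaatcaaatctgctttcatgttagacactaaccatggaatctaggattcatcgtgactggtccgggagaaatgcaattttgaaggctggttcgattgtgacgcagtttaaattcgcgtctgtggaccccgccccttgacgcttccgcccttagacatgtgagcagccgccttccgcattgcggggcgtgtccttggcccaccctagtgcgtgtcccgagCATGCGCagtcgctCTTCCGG
Mrps18c: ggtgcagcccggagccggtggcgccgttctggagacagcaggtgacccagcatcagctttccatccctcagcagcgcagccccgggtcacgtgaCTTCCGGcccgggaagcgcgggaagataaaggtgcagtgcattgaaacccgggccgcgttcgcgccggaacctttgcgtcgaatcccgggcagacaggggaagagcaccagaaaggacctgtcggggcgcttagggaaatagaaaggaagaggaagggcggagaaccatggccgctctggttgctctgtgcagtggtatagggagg

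Mrps18a held 1 match each for ETS and YY1, Mrps18b held 2 for NRF1 and 1 for ETS, and Mrps18c held 1 for ETS. A match is a description of the letters in the window, not of a bound site.

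The next largest rises at 48 h were those of Mrpl47, Mrpl35, Mrpl45, Mrps22 and Mrps36. Mrpl47 and Mrpl35 encode proteins of the large subunit with bacterial counterparts, and both had scores per kilobase at 0 h among the lowest of the 76 genes. Mrpl47 was at 317, 266 and 286 at 0 h, 569 and 631 at 12 h, then 794, 955 and 977 at 48 h. The 12 h and 48 h libraries all lay above those of 0 h, while the tissue, at 231, lay below them. The log2 change of Mrpl47 was 1.05 ± 0.13 at 12 h and 1.64 ± 0.12 at 48 h (limma, adjusted p = 2.45e-05 and 8.08e-08). Exons of Mrpl47 overlap those of Actl6a and Ndufb5, and without strand the reads of overlapping genes cannot be told apart. Ndufb5 was at 1774 ± 154 (SD, n = 3) at 0 h and 1617 ± 232 (n = 3) at 48 h, and Actl6a at 1714 ± 260 (n = 3) and 1226 ± 14 (n = 3).

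Mrpl35 was at 314, 297 and 239 at 0 h, 463 and 487 at 12 h, 811, 880 and 799 at 48 h, and 348 in the tissue. Its 48 h libraries all lay above those of 0 h. Its log2 change was 1.56 ± 0.11 at 48 h (limma, adjusted p = 8.29e-08). Mrps22, which encodes a mitochondria-specific protein of the small subunit, was at 538, 434 and 452 at 0 h, 854 and 889 at 12 h, 1157, 1315 and 1219 at 48 h, and 392 in the tissue. No cultured library of Mrps22 reached down to the 0 h values. The log2 change of Mrps22 was 1.38 ± 0.11 at 48 h (limma, adjusted p = 1.74e-07). Mrps36 was at 223, 242 and 212 at 0 h, 401 and 446 at 12 h, 413, 547 and 551 at 48 h, and 250 in the tissue. The 5 cultured libraries of Mrps36 given here were all above those of 0 h. The log2 change was 0.91 ± 0.13 at 12 h and 1.14 ± 0.12 at 48 h (limma, adjusted p = 6.5e-05 and 1.56e-06).

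Mrpl45 rose late. It encodes a mitochondria-specific protein that lies at the exit of the large subunit's tunnel and ties the ribosome to the inner membrane. Its scores were 498, 440 and 400 (0 h), 525 and 551 (12 h), 778, 759 and 733 (24 h), 1328, 1255 and 1189 (36 h), and 1386, 1224 and 1213 (48 h), and the tissue was at 428. The libraries of 12 h, 24 h and 36 h did not overlap each other, and those of 36 h and 48 h did. From 24 h to 36 h the log2 change of Mrpl45 was 0.73 ± 0.09 (limma, adjusted p = 0.00054), and it was the only Mrp gene called higher in that step, beside 10% of all transcripts. The rise from 12 h to 24 h was 0.49 ± 0.10 (limma, adjusted p = 0.0135). This call was lost without 24 h replicate 2 (adjusted p = 0.0518) and in a fit of only the compared times (0.0793). Without 12 h replicate 1, which leaves 1 library at 12 h, the rise was 0.46. Against 0 h the log2 change was 0.28 ± 0.10 at 12 h and 0.77 ± 0.09 at 24 h (limma, adjusted p = 0.0359 and 9.69e-06). The 12 h call was lost in 6 of 22 alternatives. Over 48 h the change was 1.52 ± 0.09 (limma, adjusted p = 1.71e-08). Mrpl45 lies on the plus strand of chromosome 11 (GRCm38, 97315716 to 97329920, 8 exons).

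**Figure D3:**
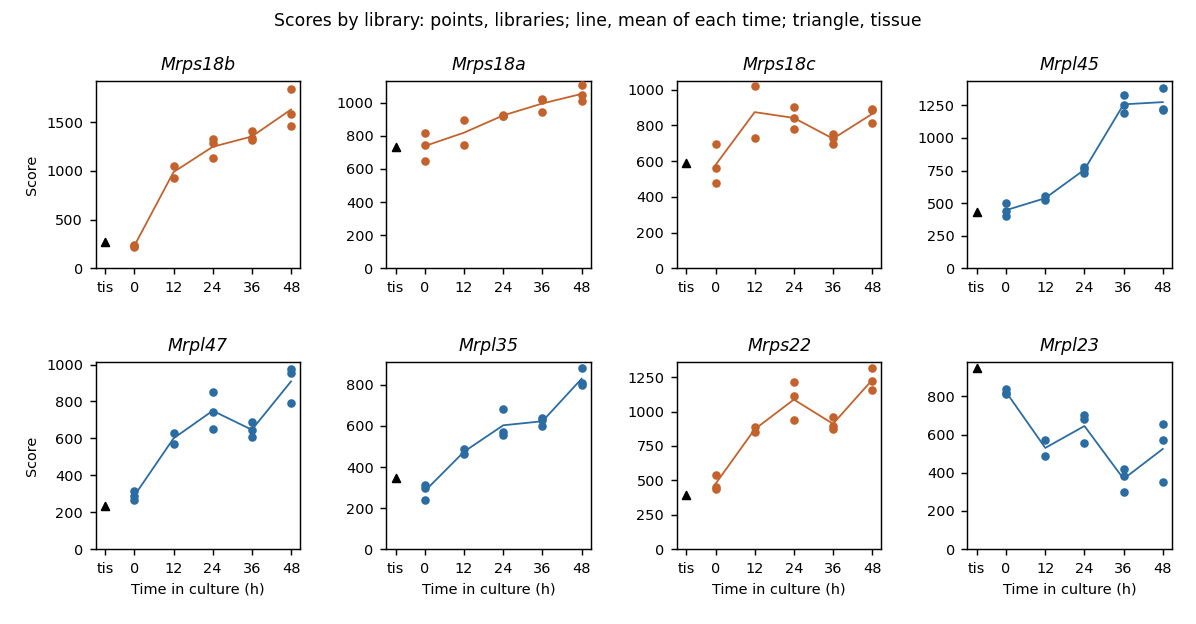
Points are the scores of single libraries by time in culture (h), lines join the mean of each time, and the triangle is the tissue library, with each axis starting at 0. Mrps18b goes from 224 to 240 at 0 h to 1462 to 1841 at 48 h, Mrpl45 makes its largest step between 24 h and 36 h, and Mrpl23 lies below its 0 h values in all 11 cultured libraries.

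Mrps28 was named for its change at 12 h. It encodes a small subunit protein related to a bacterial one, and was at 192, 193 and 195 at 0 h, 334 and 403 at 12 h, 304, 330 and 373 at 48 h, and 225 in the tissue. Both the 12 h and the 48 h libraries lay above those of 0 h. Its log2 change was 0.92 ± 0.14 at 12 h and 0.79 ± 0.12 at 48 h (limma, adjusted p = 9.99e-05 and 8.45e-05).

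Few Mrp genes fell. Mrpl23, which encodes a protein at the tunnel exit of the large subunit with a bacterial counterpart, was at 810, 840 and 817 at 0 h. It was at 490 and 570 at 12 h, 554, 679 and 701 at 24 h, 384, 301 and 418 at 36 h, 350, 571 and 653 at 48 h, and 948 in the tissue. All cultured libraries lay below the freshly isolated ones, and the 48 h libraries spread widely. The log2 change was -1.17 ± 0.20 at 36 h and -0.70 ± 0.20 at 48 h (limma, adjusted p = 0.00016 and 0.00688). At 24 h it was -0.36 and not called (adjusted p = 0.127). At 12 h it was -0.64 ± 0.22 (limma, adjusted p = 0.0256), a call lost without 0 h replicate 2 (adjusted p = 0.0581) or 12 h replicate 1 (0.147). The transcript listed for Mrpl23 is not a protein-coding one, and whether its score covers other transcripts of the gene is not given.

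Mrps33 and Mrpl49, which encode mitochondria-specific proteins of the small and the large subunit, were lower at 12 h. Mrps33 was at 836, 843 and 669 at 0 h, 499 and 653 at 12 h, then 619, 655 and 731 at 48 h. At 24 h it was at 586, 622 and 615. The 12 h and 24 h libraries lay below those of 0 h, and the 48 h libraries overlapped them. The log2 change of Mrps33 was -0.45 ± 0.13 at 12 h and -0.22 ± 0.12 at 48 h (limma, adjusted p = 0.0118 and 0.112). It was also called lower at 24 h and 36 h, at -0.36 and -0.29 (limma, adjusted p = 0.0182 and 0.0443). The 24 h call was lost without 0 h replicate 1, 0 h replicate 2 or 24 h replicate 1. Mrpl49 was at 1220, 1178 and 1102 at 0 h, 883 and 1000 at 12 h, then 1194, 1070 and 1009 at 48 h. Its libraries stood below those of 0 h at 12 h alone. The log2 change of Mrpl49 was -0.31 ± 0.09 at 12 h and -0.10 ± 0.08 at 48 h (limma, adjusted p = 0.0115 and 0.3). In a fit of only the compared times the 12 h calls of Mrps33 and Mrpl49 were lost (limma, adjusted p = 0.0859 and 0.071). Without 12 h replicate 1, which leaves 1 library at 12 h, their log2 changes were -0.25 and -0.22. Mrpl50 was the other gene called lower at 48 h, with a log2 change of -0.25 ± 0.11 (limma, adjusted p = 0.0485) and libraries that overlapped those of 0 h. Its call was lost in 10 of the 14 fits with a library left out (adjusted p up to 0.218, without 0 h replicate 1), in a fit of only the compared times (0.118), with the replicate block (0.0631) and without an intensity trend (0.0596). Mrpl13, Mrpl24 and Mrps17 were each called lower at 1 time or more before 48 h.

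Steps between neighbouring times passed the test in few Mrp genes. From 12 h to 24 h, 2 were higher and 0 lower in limma, beside 4.59% and 3.67% of all transcripts, and at an unadjusted p below 0.05 the counts were 12 and 0, beside 12.8% and 12%. They were Mrpl45 and Mrpl54, the latter at 610 and 734 at 12 h and 935, 906 and 880 at 24 h. Mrpl54 encodes a mitochondria-specific protein of the large subunit. Its log2 change was 0.44 ± 0.12 (limma, adjusted p = 0.0368). The call was lost without any 1 of the 24 h libraries (adjusted p = 0.0559 to 0.111) or 36 h replicate 1 or 2 (0.0573 and 0.0557). It was also lost with the replicate block (limma, adjusted p = 0.0585) and in a fit of only the compared times (0.126). Without 12 h replicate 1, which leaves 1 library at 12 h, the change was 0.30. From 24 h to 36 h, Mrpl45 was higher and Mrpl23, Mrpl14 and Mrpl21 were lower, the last 3 beside 9.64% of all transcripts. Lower genes numbered 8 without 24 h replicate 1 and 10 in a fit of only the compared times. Shares of all transcripts were not counted in those fits. Mrpl14, whose product lies at the interface of the subunits, went from 292, 359 and 332 to 228, 237 and 235, and Mrpl21, also of the large subunit, from 1359, 1419 and 1483 to 1136, 1139 and 1127. Both had libraries without overlap. Their log2 changes were -0.48 and -0.32 (limma, adjusted p = 0.0439 and 0.0367), and that of Mrpl23 was -0.81 ± 0.20 (adjusted p = 0.0148). The 3 calls were lost without 24 h replicate 2 (adjusted p = 0.145, 0.0933 and 0.0521 for Mrpl14, Mrpl21 and Mrpl23), 24 h replicate 3 (0.118, 0.123 and 0.06) or 36 h replicate 2 (0.104, 0.0963 and 0.0678). Those of Mrpl14 and Mrpl21 were also lost without 36 h replicate 1 (0.121 and 0.0987) or 3 (0.0896 and 0.0846), and that of Mrpl14 without either 12 h library or 48 h replicate 2 or 3 (0.0506 to 0.0532). In this step libraries with the same replicate number deviated together, and with the replicate number as a block Mrps16 and Mrpl55 were also lower (limma, adjusted p = 0.0386 and 0.0462), which made 5. At an unadjusted p below 0.05, 2 were higher and 18 lower from 24 h to 36 h, beside 16.9% and 17.9% of all transcripts. From 36 h to 48 h, 0 Mrp genes were called in either direction by limma, beside 0% higher and 0.0248% lower of all transcripts. At an unadjusted p below 0.05, 17 were higher and 0 lower in the last step, beside 6.4% and 6.99%.

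The 36 h means dipped in many genes. For 50 of the 76 genes the 36 h mean lay below both the 24 h and the 48 h mean, a pattern seen in 30.4% of all transcripts. The highest mean fell at 48 h for 38 genes, at 24 h for 22, at 0 h for 9, at 12 h for 5 and at 36 h for 2.

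Both subunits had more genes higher than lower at each time. At 48 h, 32 of 47 Mrpl genes were higher and 2 lower, and 20 of 29 Mrps genes were higher and 0 lower, or 68.1% and 69% higher beside 37.1% of all transcripts. At 36 h, 24 Mrpl genes (51.1%) and 20 Mrps genes (69%) were higher beside 36%, and no test was made between the subunits. The median log2 change was 0.42 for Mrpl and 0.52 for Mrps genes at 48 h, after 0.28 and 0.29 (12 h), 0.41 and 0.43 (24 h), and 0.27 and 0.44 (36 h). The difference of the medians at 48 h was -0.0965 (large minus small), and -0.1528 without 0 h replicate 2. It was -0.0228 with Mrps18a and Mrps30 counted in the large subunit, where their products lie, and Mrps36 left out. As a ratio of summed scores, Mrpl to Mrps was 1.84 ± 0.02 (SD, n = 3) at 0 h and 1.74 ± 0.04 (n = 3) at 48 h, with 1.91 in the tissue. The ratios of 1.83 to 1.86 at 0 h and 1.70 to 1.78 at 48 h did not overlap. The gap between 0 h and 48 h was lost without 1 gene. With Mrps18b left out of the sum, a choice made after its values were seen, the ratio was 1.87 ± 0.02 (SD, n = 3) at 0 h and 1.86 ± 0.03 (n = 3) at 48 h, and the ranges of 1.85 to 1.89 and 1.83 to 1.89 overlapped. At 12 h, without Mrps18b, both libraries (1.81 and 1.84) still lay below those of 0 h. These are descriptions, since the genes were chosen as a list.

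**Figure D4:**
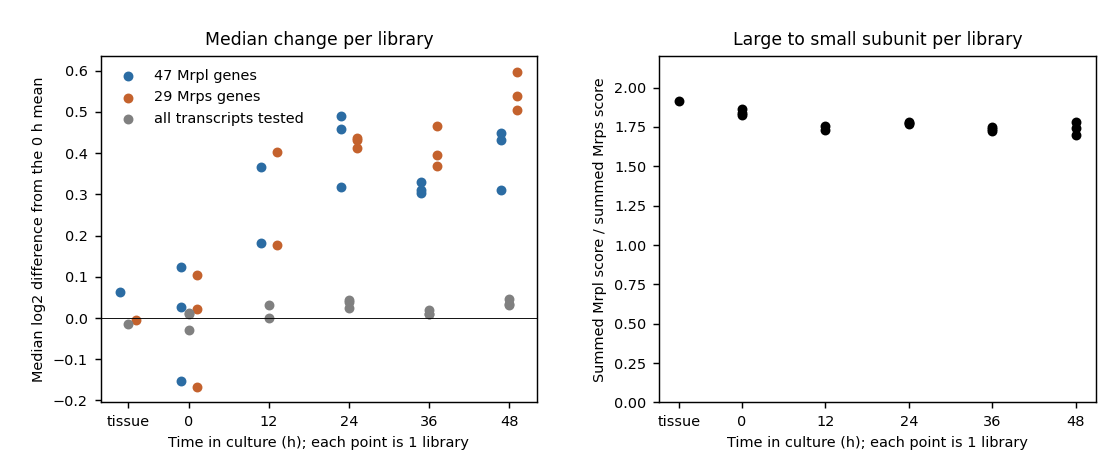
Left, the median over Mrpl genes (blue), Mrps genes (orange) and all transcripts tested (grey) of the log2 difference from the 0 h mean, with 1 point per library. Right, the summed Mrpl score divided by the summed Mrps score of each library. At 48 h the Mrpl medians lie between 0.31 and 0.45 and the Mrps medians between 0.51 and 0.60, and the ratio of sums goes from 1.83 to 1.86 at 0 h to 1.70 to 1.78 at 48 h. Without Mrps18b, which the sums plotted here include, the ratios of 0 h and 48 h overlap (1.85 to 1.89 and 1.83 to 1.89).

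The genes were also counted by whether the bacterial ribosome has a counterpart, with no test between the groups. Of 44 genes for proteins with a bacterial counterpart, 30 were higher (68.2%) and 1 lower at 48 h, with a median log2 change of 0.42. Of 29 genes for mitochondria-specific proteins, 19 were higher (65.5%) and 1 lower, with a median of 0.51. Of all transcripts 37.1% were higher and 34% lower. Mrpl12 and Mrps12 were followed for their roles. Mrpl12 encodes the stalk protein that recruits translation factors, and Mrps12 a protein of the decoding centre. Mrpl12 was at 1202, 1078 and 999 at 0 h, 1921, 1672 and 1623 at 48 h, and 943 in the tissue. Mrps12 was at 336, 328 and 279 at 0 h, 434, 612 and 598 at 48 h, and 289 in the tissue. Both had 48 h libraries above all 0 h libraries, and within 48 h Mrps12 was lowest in replicate 1, where its transcript of 380 bases, not a protein-coding one, is among the short ones. The log2 changes at 48 h were 0.67 ± 0.10 for Mrpl12 and 0.79 ± 0.14 for Mrps12 (limma, adjusted p = 5.56e-05 and 0.000182).

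Per kilobase of the listed transcript, the 0 h levels of the Mrp genes had a median of 437 and ran from 76.1 to 1917. If a score covers the whole gene, these levels are only rough. The median was 502 for Mrpl and 322 for Mrps genes. The highest levels per kilobase were those of Mrpl20, Mrps21 and Mrpl13, and the lowest those of Mrpl35, Mrpl47 and Mrpl19, all of them with bacterial counterparts. Mrpl20, 916, 1025 and 865 at 0 h and 1347, 1617 and 1667 at 48 h, rose by 0.72 ± 0.10 on the log2 scale (limma, adjusted p = 3.17e-05). Mrpl13, 1470, 1307 and 1133 at 0 h and 1176, 1355 and 1253 at 48 h, had overlapping libraries and a log2 change of -0.04 ± 0.11 (adjusted p = 0.75). Mrps21, 952, 1031 and 738 at 0 h and 1056, 1286 and 1366 at 48 h, changed by 0.45 ± 0.13 (limma, adjusted p = 0.00707). Mrpl19, 706, 553 and 540 at 0 h and 970, 1034 and 1094 at 48 h, changed by 0.79 ± 0.11 (adjusted p = 2.17e-05). The table's transcripts of Mrpl20 and Mrpl13 are not the protein-coding ones. Over the 76 genes, the 48 h change and the 0 h mean had a Spearman correlation of -0.532, given as a description because both use the same 0 h libraries. With transcript length and GC content the correlations were -0.12 and 0.114.

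In the tissue the Mrp genes stood near the freshly isolated mDMCs. The tissue lay above all 0 h libraries for 26 genes, below them for 13 and within their range for 37, where 29.7% and 32% of all transcripts lay above and below. The median log2 difference of the tissue from the 0 h mean was 0.045, with a range of -0.469 to 0.572. The median was 0.063 for Mrpl and -0.004 for Mrps genes. Farthest outside the 0 h range were Mrpl30 at 950 (0 h, 719, 739 and 720), Mrps16 at 699 (521, 554 and 459) and Mrps27 at 383 (602, 535 and 464). Mrpl30 and Mrps16 encode proteins with bacterial counterparts and Mrps27 an RNA-binding protein that is mitochondria-specific. These differences have no replicate check. For 57 of the 76 genes the tissue lay below all 3 libraries of 48 h and for 9 above them, against 46.1% and 40.5% of all transcripts.

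Genes that work with the mitochondrial ribosome were counted in the same way at 48 h, when 37.1% of all transcripts were higher and 34% lower with a median log2 change of 0.03. Of 23 genes for assembly of the ribosome, 17 were higher (73.9%) and 0 lower, with a median log2 change of 0.53. Mpv17l2, an assembly factor of the inner membrane, was at 20, 25 and 31 at 0 h and at 246, 249 and 245 at 48 h, and changed by 3.25 ± 0.17 (limma, adjusted p = 3.73e-09). This was a larger change than that of any Mrp gene, at a far lower score. Mrm2, a methyltransferase of the large ribosomal RNA, changed by 1.70 ± 0.28 and Fastkd2, an RNA-binding protein of mitochondrial RNA granules, by 0.96 ± 0.14. Of 5 ribosomal proteins under other symbols, 4 were higher and 0 lower with a median of 0.53, led by Ptcd3 (0.75 ± 0.13), Aurkaip1 (0.63 ± 0.08) and Chchd1 (0.53 ± 0.10).

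The genes for the supply of translation were mixed. Of 16 translation factors, 9 were higher (56.2%, beside the 37.1% of all transcripts) and 1 lower, with a median of 0.31. Mtrf1 (1.11 ± 0.21) and Mtrf1l (0.80 ± 0.14), both release factors, and Mtfmt (0.90 ± 0.17), which formylates the initiator tRNA, rose most. Guf1, an elongation factor, was at 1495, 1496 and 1416 at 0 h and at 879, 902 and 863 at 48 h. It fell by 0.74 on the log2 scale (SE 0.08; limma, adjusted p = 4.37e-06). Of 17 mitochondrial aminoacyl-tRNA synthetases, 9 were higher (52.9%) and 4 lower (23.5%), with a median of 0.41. Pars2, Mars2 and Yars2, for proline, methionine and tyrosine, changed by 1.39 ± 0.17, 1.10 ± 0.07 and 1.04 ± 0.09. Wars2, Vars2 and Hars2, for tryptophan, valine and histidine, changed by -0.68 ± 0.11, -0.55 ± 0.14 and -0.37 ± 0.12, all with a limma adjusted p below the threshold.

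Regulators of mitochondrial transcription and biogenesis moved both ways. Of 14, 5 were higher (35.7%) and 3 lower (21.4%), with a median of 0.21, and the share of higher genes was near the 37.1% of all transcripts. Esrra, a nuclear receptor that drives respiratory genes, was at 416, 354 and 198 at 0 h and at 1576, 1399 and 1492 at 48 h, a log2 change of 2.27 ± 0.22 (limma, adjusted p = 1.28e-06). Its coactivator Ppargc1b changed by 1.82 ± 0.29 and Tefm, the elongation factor of mitochondrial transcription, by 1.47 ± 0.18. Pprc1, a coactivator, Gabpa, the DNA-binding subunit of GABP, and Tfam, which packages mitochondrial DNA and starts its transcription, changed by -0.55 ± 0.23, -0.29 ± 0.12 and -0.28 ± 0.11. The limma adjusted p values of these 3 were 0.0464, 0.0431 and 0.0291. Of 77 oxidative phosphorylation subunits, 28 were higher (36.4%, near the share of all transcripts) and 5 lower (6.49%), with a median of 0.18. Cox6b2, Cox5a and Uqcrq changed by 2.16 ± 0.44, 0.94 ± 0.10 and 0.94 ± 0.14, and Cox4i2, Atp5e and Atp5a1 by -1.41 ± 0.25, -0.50 ± 0.17 and -0.49 ± 0.12, all called by limma. Cox6b2 and Cox4i2 were at 123 or less in each 0 h library. At 12 h 4 of the 77 were higher (5.19% beside 29.9%) and 22 lower (28.6% beside 28.3%). Only 6 genes for cytosolic ribosomal proteins had values, of which Rpl29 was higher and Rplp2 lower at 48 h. At 12 h, 24 h and 36 h none of the 6 was higher, beside 29.9%, 35% and 36% of all transcripts. In turn 4, 3 and 5 were lower, beside 28.3%, 31.8% and 34%, with medians of -0.50, -0.41 and -0.73.

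Many Mrp genes share their start region with a neighbour on the other strand. For 28 of the 76 genes (36.8%) a protein-coding gene started within 1000 bases in the opposite direction, against 14.4% of 11589 protein-coding genes tested. Of the 27 such neighbours with values, 12 were higher (44.4%, beside 37.1% of all transcripts) and 4 lower (14.8%, beside 34%) at 48 h, with a median log2 change of 0.28. Ppp1r10, whose start lies 45 bases from that of Mrps18b, was at 1390 ± 106 (SD, n = 3) at 0 h and 1826 ± 342 (n = 3) at 48 h, a log2 change of 0.38 ± 0.14 (limma, adjusted p = 0.0257) beside 2.81 for Mrps18b. Ncapd2, a condensin subunit that starts 100 bases from Mrpl51, changed by -1.0 ± 0.08 (adjusted p = 2.57e-07), while Mrpl51 changed by 0.87 ± 0.11 (limma, adjusted p = 1.62e-05). Twnk, the helicase of mitochondrial DNA, starts 116 bases from Mrpl43 and changed by -0.51 ± 0.13 where Mrpl43 changed by 0.78 ± 0.09. Exons of 17 Mrp genes, Mrpl43 and Mrpl47 among them, overlap another protein-coding gene, and their scores are uncertain to that extent because the library kit does not mark strand.

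**Figure D5:**
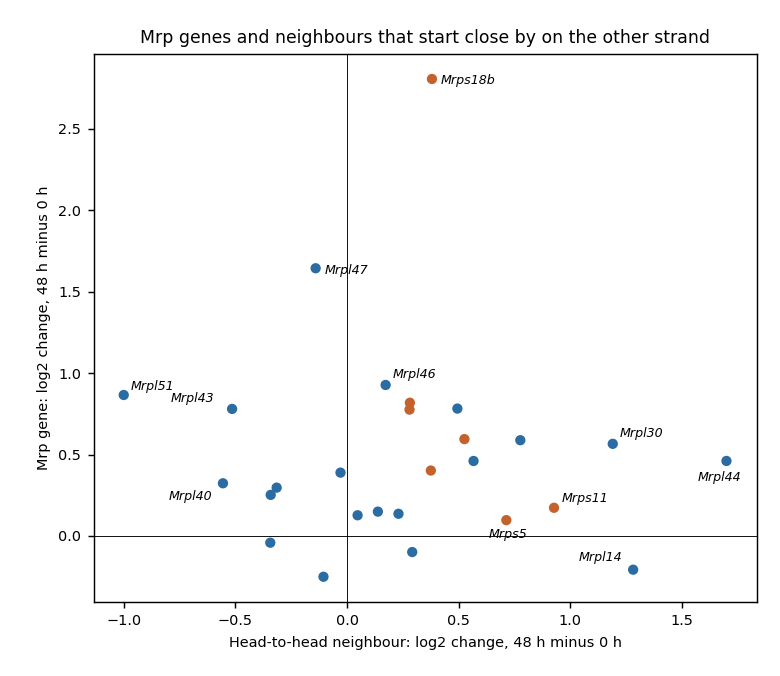
Each point is an Mrp gene with a head-to-head neighbour that has a value, with the neighbour's log2 change from 0 h to 48 h on the x axis and that of the Mrp gene on the y axis, Mrpl in blue and Mrps in orange. Mrpl46 and Mrps11 are neighbours of each other and appear as a point each. Mrps18b stands at 2.81 against 0.38 for its neighbour, and Mrpl51 at 0.87 against -1.0.

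Mrpl46 and Mrps11, a large and a small subunit gene, start 30 bases apart in opposite directions on chromosome 7. Whether these genes share a promoter was not tested. Their windows (GRCm38.p6, chr7:78783040-78783339 on the minus strand and chr7:78782881-78783180 on the plus strand) have 141 bases in common. Each is written along the strand of its gene, with capitals as above.
Mrpl46: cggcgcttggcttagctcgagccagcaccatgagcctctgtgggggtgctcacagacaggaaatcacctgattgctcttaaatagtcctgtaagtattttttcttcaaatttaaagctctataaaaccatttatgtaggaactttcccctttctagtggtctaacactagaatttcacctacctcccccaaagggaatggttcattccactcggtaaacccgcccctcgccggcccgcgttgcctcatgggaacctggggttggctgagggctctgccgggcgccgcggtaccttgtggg
Mrps11: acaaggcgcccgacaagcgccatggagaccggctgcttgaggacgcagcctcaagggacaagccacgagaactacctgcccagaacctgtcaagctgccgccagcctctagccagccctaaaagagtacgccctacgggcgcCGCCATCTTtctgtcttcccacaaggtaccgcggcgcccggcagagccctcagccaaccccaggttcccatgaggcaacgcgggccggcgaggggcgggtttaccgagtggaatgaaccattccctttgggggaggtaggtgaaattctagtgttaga

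Mrpl46 was at 331, 321 and 264 at 0 h, 464 and 605 at 12 h, 548, 595 and 594 at 48 h, and 333 in the tissue. Mrps11 was at 981, 976 and 768 at 0 h, 887 and 969 at 12 h, 1013, 1051 and 990 at 48 h, and 734 in the tissue. Mrpl46 libraries of 48 h lay far above those of 0 h, and Mrps11 libraries of 48 h lay just above them. The log2 change at 48 h was 0.93 ± 0.12 for Mrpl46 and 0.17 ± 0.11 for Mrps11 (limma, adjusted p = 1.45e-05 and 0.184). The ratio of Mrpl46 to Mrps11 was 0.337, 0.329 and 0.344 in the 0 h libraries, 0.541, 0.566 and 0.600 in the 48 h libraries and 0.454 in the tissue. This pair was chosen after its values were seen. The exons of Mrps11 overlap a transcript of Mrpl46, so that part of the reads could belong to either gene.

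RefSeq promoter windows were matched for 67 of the 76 genes, and 53 of them start within 100 bases of the transcript in the table. The ETS letters CCGGAAG were in 24 (35.8%), against 18.9% of the 9271 promoters of genes tested and 8.91% of 32544 promoters in all. The NRF1 letters GCGCATG were in 6 (8.96%, against 7.28% and 3.93%), the YY1 letters AAGATGGCG in 8 (11.9%, against 3.32% and 1.41%), and TATAAA in 4 (5.97%, against 6.67% and 13.6%), each on either strand. At least 1 of the first 3 was in 33 windows (49.3%), against 26.9% of the genes tested. The medians with and without the letters were set side by side, with no test. The median log2 change at 48 h was 0.436 with and 0.46 without the ETS letters, 0.463 and 0.46 for YY1, and 0.622 and 0.452 for NRF1, which rests on 6 genes.

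Markers of other cell types changed along with the Mrp genes between 0 h and culture, and their part in the result was not tested. The 7 measured of 9 red cell markers summed to between 97833 and 150838 in the 0 h libraries, 135856 in the tissue and 51 to 168 at 48 h, and Slc4a1 was listed at 0 in cultured mDMCs. The 7 endothelial markers summed to 8540 to 10157 at 0 h and 493 to 861 at 48 h. The 8 measured of 9 epithelial markers summed to 16489 in 0 h replicate 1, with 2127 and 1943 in the other 0 h libraries, 2413 and 2859 at 12 h, and 357 to 1208 at 48 h. The 4 measured of 8 macrophage markers summed to 782 to 1078 at 0 h and 293 to 338 at 48 h. No other marker of these lists was at 0 throughout a group. Nerve and glia (1 of 5 markers with a value) summed to 77 to 258 at 0 h and 301 to 1005 at 48 h, and muscle (4 of 5) to 193 to 1103 and 751 to 1630. The 8 dental mesenchyme markers, Msx1 and Pax9 among them, were all present, at sums of 79280 to 93535 at 0 h, 45127 to 53625 at 48 h and 65300 in the tissue. In such bulk libraries, fewer cells of a type and less RNA per cell cannot be told apart.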

How the data were processed

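RNA-seq data of 15 libraries were used: mDMCs at 0, 12, 24, 36 and 48 h and dental mesenchyme tissue, grouped by the sample labels. The authors removed adaptor sequence, used bowtie against mm10 transcripts of Ensembl, and quantified with RSEM (version 1.1.21 in the submitters' processing notes). The authors deposited 1 table of whole-number scores for 12089 transcripts, named as cpm, but the scores are not on that scale: library totals lie between 21357605 and 21365980, and all 15 libraries share their median and largest value. The step that brought them to a common distribution is not given in the sources used here. A change in total RNA cannot be seen, depth is unknown, and precision is known only from replicates.

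Transcripts were named with GENCODE annotation of GRCm38 (11973 of 12089 matched), and coordinates, exons, length and GC content are those of the listed transcript. The 11973 belong to 11960 genes. Whether a score is for the listed transcript or for the whole gene is not given in the sources used here. Scores were taken as log2(score + 1), so fold changes of low genes are understated. limma 3.58.1 (R 4.3.3) was fitted to the 14 mDMC libraries with 1 mean per time, eBayes with an intensity trend and two-sided tests, over 12079 transcripts. These held 1 ppm or more of the total score in 2 or more libraries. Benjamini-Hochberg adjustment covered all of them. Libraries with the same replicate number were checked for shared deviations from the group means. The 3 pairs of 24 h and 36 h correlated at 0.127 to 0.165 and those of 24 h and 48 h at 0.201 to 0.318, so the numbers may stand for pairs there. The main fit had no pairing, and the replicate block was an alternative over all 14 libraries. Between the other times at least 1 pair was under 0.1, and the libraries share only a number. The labels do not say what the number stands for. The tissue has no replicate and was not tested. Lists were described by counts and medians, with no test of a list. The fitting step was tested on simulated data. Python 3.11.15, numpy 2.4.6, pandas 2.3.3, scipy 1.17.1 and matplotlib 3.10.9 were used for tables and plots.

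Genes were named by rule: the 6 largest called rises and falls at 48 h and the 4 largest at 12 h with libraries apart, the 3 largest in each direction between neighbouring times, the 3 highest and 3 lowest per kilobase, the Mrps18 paralogs with Mrpl12 and Mrps12, the 3 genes farthest outside the 0 h range in tissue, and the 3 largest called changes in each direction in each related list. Members, lists and tests were chosen with earlier results of these data known. The alternatives were other pseudocounts and filters, trimmed-mean scaling, a fit of only the compared times, the replicate number as a block, no intensity trend, 2 stricter call rules and each library left out in turn.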

Additional observations from a re-analysis of the deposited data

How the results depend on the processing

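Counts of higher genes against 0 h stayed within 1.5 times of the values given under other pseudocounts, other filters, trimmed-mean scaling, a fit of only the compared times, no intensity trend and the replicate block. Of 55 results for named genes, 38 had the same outcome, called or not called, under all 22 alternatives. Some of the 38 were not called in any fit. Called results changed direction in 0 cases, and changes of sign among uncalled results were not counted. With a fold change above 2 added to the adjusted or to the unadjusted p, higher genes numbered 2, 6, 4 and 6 at 12, 24, 36 and 48 h and lower ones 0, 0, 1 and 0. In the step from 12 h to 24 h 0 were then higher, and in that from 24 h to 36 h 0 were called in either direction. In a fit of only the compared times, 1 gene was lower at 12 h and 1 at 48 h, 0 were higher from 12 h to 24 h, while 2 were higher and 10 lower at 36 h against 24 h. Without an intensity trend, 1 gene was lower at 24 h and 1 at 48 h. With the replicate block, 1 gene was lower at 48 h, 1 was higher from 12 h to 24 h and 5 were lower from 24 h to 36 h. The block moved no other count by over 1.5 times. With Mrps18a and Mrps30 in the large subunit and Mrps36 left out, the difference of the subunit medians was -0.0228. With Mrps18b left out, an alternative chosen after seeing the data, the change of the Mrpl to Mrps ratio from 0 h to 48 h was -0.0074 in place of -0.1004. The cause of the other differences was not tested.

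With each library left out in turn, the counts of higher and lower genes were 24 to 39 and 0 to 7 (12 h), 43 to 52 and 0 to 3 (24 h), 38 to 45 and 3 to 8 (36 h), and 47 to 55 and 1 to 5 (48 h). In the steps between neighbouring times they were 0 to 5 and 0 to 0 (24 h against 12 h), 1 to 2 and 0 to 8 (36 h against 24 h), and 0 to 3 and 0 to 0 (48 h against 36 h). The difference of the subunit medians ran from -0.1528, without 0 h replicate 2, to -0.0952. Lower genes numbered 7, 8 and 5 at 12 h, 36 h and 48 h without 0 h replicate 3, and 0 at 12 h without 12 h replicate 1. From 36 h to 48 h, 3 genes were higher without 48 h replicate 1, and from 24 h to 36 h 8 were lower without 24 h replicate 1 and 0 without 24 h replicate 2 or 3 or 36 h replicate 2. Depth is unknown, so no limit from counting can be given. The share of all transcripts called was not counted in any alternative fit.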
